A study of Mus musculus with 8 samples.

Results

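The genes described here are those of the mouse major histocompatibility complex (MHC) and of antigen presentation. They are the rows of the count matrix whose symbol starts with H2-, together with B2m, Tap1, Tap2, Tapbp, Psmb8, Psmb9, Psmb10, Psme1, Psme2, Nlrc5, Erap1, Cd74, Ciita and Ifi30, where the row held at least 10 unique molecular identifiers (UMIs, counts of captured transcripts). The rule was met by 36 of 31053 rows, 23 with an H2- symbol and 13 with another. Of 47 rows with a matching symbol at any count, H2-M2 with 10 UMIs and H2-Eb2 with 11 lay just inside the minimum, and H2-M5 with 1 UMI just outside. H2-Ke6 was kept because its symbol fits, although it encodes a short-chain dehydrogenase and no MHC molecule. The most counted members were B2m with 27975 UMIs, H2-D1 with 12982, Cd74 with 11126 and H2-K1 with 7493.

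MHC class I molecules are heavy chains paired with beta-2-microglobulin (B2m) that show peptides from inside the cell to CD8 T cells. The peptides are cut by the proteasome, whose immune subunits Psmb8, Psmb9 and Psmb10 replace Psmb5, Psmb6 and Psmb7, then carried into the endoplasmic reticulum by Tap1 and Tap2, trimmed by Erap1 and loaded with the help of Tapbp. Class II molecules (H2-A and H2-E) show peptides from endosomes to CD4 T cells, travel with the invariant chain Cd74, and are loaded by H2-DM, which H2-O restrains. Ciita switches on class II genes and Nlrc5 class I genes. In the liver, B cells, dendritic cells and macrophages are the professional class II presenters, and sinusoidal endothelial cells are known for presenting antigen to T cells in a way that favours tolerance.

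In GENCODE vM21 on mm10, 28 of the 36 genes lie on chromosome 17 between 33915899 and 37483552, the H2 complex. The gene of H2-K1 spans chr17:33996017-34000347, H2-D1 chr17:35262730-35267499, H2-Aa chr17:34282744-34287823, H2-Ab1 chr17:34257689-34269419, H2-Eb1 chr17:34305867-34316674 and H2-Q10 chr17:35470089-35474563. B2m lies outside the complex at chr2:122147686-122153083, inside an intron of the gene Patl2 on the other strand. The ends of Tap1 (17:34187553-34197225) and Psmb9 (17:34181987-34187764) overlap, so reads from the overlap cannot be assigned without strand.

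The promoters below are shown because the class I and class II genes, whose levels separated the cell classes, carry different letters upstream of their start sites. Each is the 200 bases before the RefSeq start on GRCm38.p6 (mm10), 5′ to 3′ on the gene's strand, with matches in capitals. Matches were sought on both strands for the Y box GATTGG, a stretch of the X box AACNGATG and the cyclic AMP element core TGACG. Also sought were the core of the kappa B site GGGANTNCC and GAANNGAAA. The latter is a close-spaced form of part of the interferon-stimulated response element, called the interferon element part below. Wider-spaced forms were not sought. The B2m window holds such a stretch, gaaactgaaa, which does not match GAANNGAAA and stays in lower case. Adjacent or overlapping matches run together in capitals. The windows lie at chr17:34287824-34288023 on the minus strand (H2-Aa), chr17:34305667-34305866 on the plus strand (H2-Eb1), chr17:34145049-34145248 on the plus strand (H2-DMb2), chr17:34000348-34000547 on the minus strand (H2-K1), chr17:35469889-35470088 on the plus strand (H2-Q10) and chr2:122147487-122147686 on the plus strand (B2m).
H2-Aa: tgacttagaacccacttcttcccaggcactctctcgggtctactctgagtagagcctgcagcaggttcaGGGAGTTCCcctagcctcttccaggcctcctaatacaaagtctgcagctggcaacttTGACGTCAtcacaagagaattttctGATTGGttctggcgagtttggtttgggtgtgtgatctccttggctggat
H2-Eb1: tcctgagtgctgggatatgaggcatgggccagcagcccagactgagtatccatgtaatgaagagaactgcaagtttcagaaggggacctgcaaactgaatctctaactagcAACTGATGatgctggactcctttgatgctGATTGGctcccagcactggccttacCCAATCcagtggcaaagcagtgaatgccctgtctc
H2-DMb2: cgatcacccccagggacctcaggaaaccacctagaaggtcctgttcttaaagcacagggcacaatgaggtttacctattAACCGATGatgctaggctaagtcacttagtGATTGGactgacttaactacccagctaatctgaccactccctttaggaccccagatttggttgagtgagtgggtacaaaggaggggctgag
H2-K1: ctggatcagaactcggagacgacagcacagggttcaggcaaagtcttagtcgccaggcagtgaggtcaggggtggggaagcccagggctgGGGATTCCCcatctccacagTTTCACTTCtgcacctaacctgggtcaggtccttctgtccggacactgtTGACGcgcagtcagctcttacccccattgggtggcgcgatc
H2-Q10: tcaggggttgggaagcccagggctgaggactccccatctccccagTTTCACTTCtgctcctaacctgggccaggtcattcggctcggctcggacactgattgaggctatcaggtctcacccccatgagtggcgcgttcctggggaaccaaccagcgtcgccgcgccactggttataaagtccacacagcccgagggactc
B2m: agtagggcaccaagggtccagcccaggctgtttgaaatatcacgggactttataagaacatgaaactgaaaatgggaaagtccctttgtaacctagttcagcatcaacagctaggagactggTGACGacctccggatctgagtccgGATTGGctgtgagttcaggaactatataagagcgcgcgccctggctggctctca

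RefSeq promoter windows were found for 29 of the 36 genes. Among class II chains and their helpers, 8 of 10 had a window and all 8 held the Y box in at least 1 window, which 12.9% of all 32851 windows of this length held. The X box stretch stood in 4 of the 8 (H2-Eb1, H2-Eb2, H2-DMb1 and H2-DMb2) against 1.55% of all windows, and the X stretch together with the Y box in the same 4 against 0.152%. In H2-DMb1 and H2-DMb2 22 bases separated the X stretch from the Y box, and in H2-Eb1 and H2-Eb2 21 bases. H2-Aa held TGACG in place of the X stretch (15.7% of all windows), and was also the only one of the 8 with the kappa B core. None of the 8 held the interferon element part. Class I heavy chains differed: of 11 with a window, 8 held the interferon element part (5.0% of all windows), 6 the kappa B core (2.72%), 7 the Y box, 6 TGACG and 0 the X stretch. H2-K1 has another RefSeq start, and its Y box lies in the window of that start and outside the one printed. H2-Q10 is the heavy chain secreted by hepatocytes, and its window held only the interferon element part. A match of letters is a description and no evidence of binding.

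Liver stromal cells of male C57Bl/6 mice were studied, 4 on a chow control diet and 4 on an HFHC diet, with 1 single-cell library (10x Genomics Chromium) per mouse. The design text reads HFHC as high fat and high cholesterol, the sample titles as high fat and high calorie. The labels give mice of 6 to 8 weeks when bought and 20 to 32 weeks of diet, and viable cells stained for CD45, CD31, CD146 and PDPN were sorted to enrich stromal cells. No sort gate is given in the sources used here, so the cell classes of a library also depend on the sort.

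After shared barcodes were assigned to the library with most UMIs, 3192 of 3416 cells remained, 47 to 875 a library, with 170448 to 2309209 UMIs. Shared barcodes were many (33 to 65 a pair) among 5 libraries and few (at most 4 a pair) in control 3, control 4 and HFHC 4. Control 4 held Xist UMIs in 67 of 94 cells although labelled male, and the title of the library called HFHC 4 here numbers its animal 14. Cells were assigned to 14 classes by marker genes, none of them an MHC or antigen presentation gene, and 163 cells stayed without a class. Few classes had 10 cells in several libraries. Those with most cells were sinusoidal endothelial (LSEC)-like cells in each control library and in HFHC 4 (19, 61, 556, 38 and 557 cells), hepatocyte-like cells in control 2 and HFHC 3 (657 and 653), and B cell-like cells in control 2 and HFHC 3 (37 and 15). Basophil or mast-like, cholangiocyte-like, macrophage or monocyte-like and vascular endothelial-like cells also reached 10 cells in 2 libraries each. Levels are counts per 1000000 UMIs (CPM) of the summed cells of a class in a library. Intervals of 95% for levels, shares and ratios of single libraries are exact and cover counting error only.

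**Figure D1:**
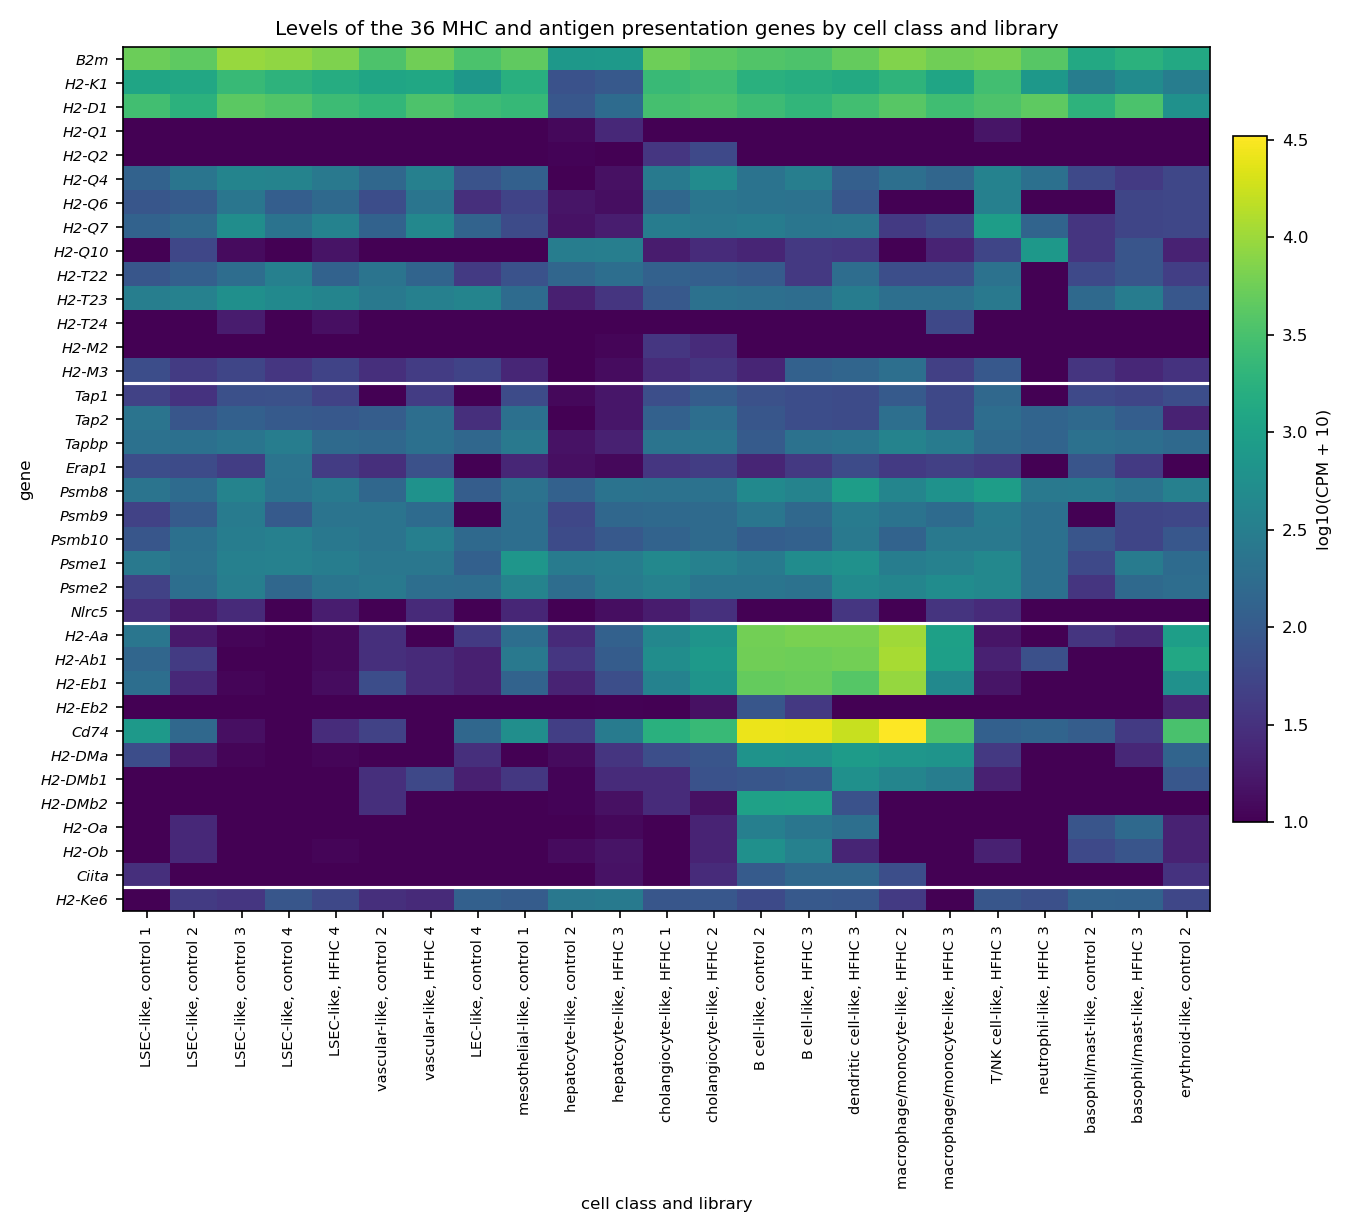
Levels of the 36 genes (rows, grouped as class I heavy chains with B2m, class I pathway, class II with its regulators, and H2-Ke6) in each class and library with at least 10 cells (columns). Colour is log10(CPM + 10). B2m, H2-K1 and H2-D1 are lowest in hepatocyte-like cells, and class II genes are high in B cell-, dendritic cell- and macrophage or monocyte-like cells.

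B2m, H2-K1 and H2-D1 were found in every class drawn, and hepatocyte-like cells held least of these 3. Of the other heavy chains, H2-T22 and H2-Q10 (described further on) went another way. H2-T22 stood at 135 and 179 CPM in hepatocyte-like cells, above 91 and 28 CPM (7 and 1 counts) in B cell-like cells. T or NK cell-like cells had 201 CPM of it, and the ratio of LSEC-like to hepatocyte-like cells of control 2 was 0.795 (0.424 to 1.38). H2-Q4, H2-Q7 and H2-T23 were lower in hepatocyte-like than LSEC-like cells there, as H2-K1 and H2-D1 were. B2m stood at 754 and 802 CPM in hepatocyte-like cells of control 2 and HFHC 3. In LSEC-like cells of control 1 to 4 it stood at 5379, 4387, 9371 and 8746 CPM, and in HFHC 4 at 6937. T or NK cell-like cells of HFHC 3 had 6301 CPM, macrophage or monocyte-like cells of HFHC 2 and HFHC 3 7023 and 5746, and cholangiocyte-like cells of HFHC 1 and HFHC 2 5496 and 4336. The LSEC-like libraries therefore spanned these levels of the T or NK cell- and macrophage-like classes and of cholangiocyte-like cells of HFHC 1. Cholangiocyte-like cells of HFHC 2 lay just below the lowest LSEC-like library. The order among these classes did not stand beyond the spread of libraries. Basophil or mast-like cells (1337 and 1783 CPM) and erythroid-like cells of control 2 (1321 CPM) stood between hepatocyte-like cells and the rest. The other classes lay between 3366 CPM in lymphatic endothelial (LEC)-like cells and 5788 CPM in vascular endothelial-like cells of HFHC 4.

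H2-K1 and H2-D1 encode the classical heavy chains of this strain. H2-K1 stood at 68 and 87 CPM in hepatocyte-like cells, at 1154, 1289, 2321 and 1865 CPM in LSEC-like cells of control 1 to 4 and at 1493 in HFHC 4. Its highest levels were 2848 CPM in T or NK cell-like cells and 2432 and 2756 CPM in cholangiocyte-like cells. H2-D1 stood at 79 and 160 CPM in hepatocyte-like cells and at 2876, 1802, 4260 and 3666 CPM in LSEC-like cells of control 1 to 4, with 2561 in HFHC 4. Neutrophil-like cells (4393 CPM) and macrophage or monocyte-like cells of HFHC 2 (4051 CPM) lay inside the LSEC-like range or just above it.

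Within control 2, where both classes share animal and capture, H2-K1 was 18.9 times higher in LSEC-like than in hepatocyte-like cells (95% interval 14.3 to 25.3). H2-D1 was 22.7 times higher (17.6 to 29.5) and B2m 5.82 times (5.22 to 6.49). Of 17 members with at least 20 counts in this pair, 9 were at least 2-fold higher in LSEC-like cells, against 28.5% of all genes, and 2 were at least 2-fold lower, H2-Ke6 and H2-Q10, against 33.9%. With 1 library these ratios have no test. With classes from clusters in place of marker gates the ratios were 10.4 for H2-K1, 10.7 for H2-D1 and 4.80 for B2m.

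Other pairs within a library placed the remaining classes. In HFHC 3, T or NK cell-like cells stood above hepatocyte-like cells 32.6 times for H2-K1 (27.1 to 39.5), 21.2 times for H2-D1 and 7.86 times for B2m (7.25 to 8.51). There 13 of 26 members were at least 2-fold higher, against 22.3% of all genes, and 7 lower, against 40.4%. Macrophage or monocyte-like cells gave 13.2 times for H2-K1 and 7.16 times for B2m, with 13 of 20 members higher, against 22.6%, and 4 lower, against 41.4%. Neutrophil-like cells stood 27.5 times higher for H2-D1 (20.8 to 35.9) and 8.62 times for H2-K1 (4.36 to 15.5), with 6 of 20 members higher, against 15.0%, and 9 lower, against 71.7%. Most of those 9 had 0 counts in a sum of few UMIs, where a 2-fold difference was not detectable.

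Against B cell-like cells of HFHC 3, T or NK cell-like cells held 1.82 times the H2-K1 (1.37 to 2.45) and 1.65 times the H2-D1. B2m was 1.83 times and H2-Q7 3.98 times higher (1.97 to 9.37). Of 22 members 7 were at least 2-fold higher, near the share of all genes (27.0%). The 6 lower members, against 7.74% of all genes, were all class II chains or helpers. Neutrophil-like cells differed from T or NK cell-like cells in H2-K1 (0.264 times, 0.136 to 0.466) and less in H2-D1 (1.30 times, 0.997 to 1.66), with 1 of 18 members higher, against 14.8%, and 9 lower, against 48.2%. Basophil or mast-like cells of control 2 held 0.231 times the H2-K1 of LSEC-like cells (0.117 to 0.413) and 0.305 times the B2m, with 0 of 12 members higher, against 15.0%, and 8 lower, against 45.2%. H2-D1 was not among those 8.

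The class difference could be tested where control 2 and HFHC 3 both held a pair of classes, with the library as a covariate. In B cell-like against hepatocyte-like cells 28 members passed the filter on low counts, 19 rose, 2 fell and 7 did not pass edgeR's quasi-likelihood test with Benjamini-Hochberg adjustment at 0.05. Of all 5160 genes 15.8% rose and 23.9% fell, with a median log2 fold change of -0.59 (-0.74 with DESeq2's size factors). The count of 19 includes 11 members that reached the filter's minimum of 17.6 CPM in B cell-like sums alone and so could only be higher there: Ciita, H2-DMb1, H2-DMb2, H2-Oa, H2-Ob, H2-Q4, H2-Q6, H2-Q7, Tap1, Tap2 and Tapbp. Of the 17 members that reached it in both classes, 8 rose, 2 fell and 7 did not pass, where 7.68% of the 3503 genes of that kind rose and 22.9% fell. The median log2 was 1.85 for these 17 and -0.60 for these genes. B2m rose by 1.85 (SE 0.30) on the log2 scale (edgeR adjusted p = 2.74e-07), H2-K1 by 4.07 (SE 0.39, adjusted p = 6.91e-16) and H2-D1 by 4.01 (SE 0.37, adjusted p = 1.82e-16). The light chain thus differed less than the heavy chains in these fits, a contrast that has no test of its own. Tap1, Tap2 and Tapbp, which feed and load class I molecules, had 7, 8 and 14 counts in the B cell-like sums of both libraries together (62.6, 71.5 and 125 CPM) and 13, 11 and 23 in the hepatocyte-like sums (4.76, 4.03 and 8.42 CPM). The Tap1 call was lost without the filter on low counts (edgeR adjusted p = 0.114).

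Basophil or mast-like cells held less B2m and H2-K1 than B cell-like cells. Of 18 members tested, 14 fell, 0 rose and 4 did not pass, where of 768 genes 24.1% fell and 29.8% rose, with a median log2 of 0.13 (0.03 with DESeq2's size factors). Of these 18, 12 reached the filter's minimum of 185 CPM in B cell-like sums alone and so could only be lower, 11 of them among the 14 that fell. The other 6 were B2m, H2-K1, H2-D1, Psmb8, Psme1 and Tapbp, of which 3 fell and 0 rose, where of 488 genes of that kind 20.9% fell and 16.0% rose. B2m fell by 1.17 on the log2 scale (SE 0.25, edgeR adjusted p = 9.5e-06) and H2-K1 by 2.03 (SE 0.34, adjusted p = 2.58e-08). H2-D1 differed by 0.13 (SE 0.24, adjusted p = 0.703), with 1906 and 3286 CPM in basophil or mast-like cells against 2604 and 2051 in B cell-like cells, so the groups overlapped. H2-Q4, H2-Q6 and H2-Q7, among those 12, fell by 2.72, 2.88 and 2.72 on the log2 scale, and with DESeq2 the calls for H2-Q4 (adjusted p = 0.0523) and H2-Q6 (adjusted p = 0.118) were lost. The 2 class comparisons were chosen after the number of cells per class was known, and each rests on 2 libraries.

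**Figure D2:**
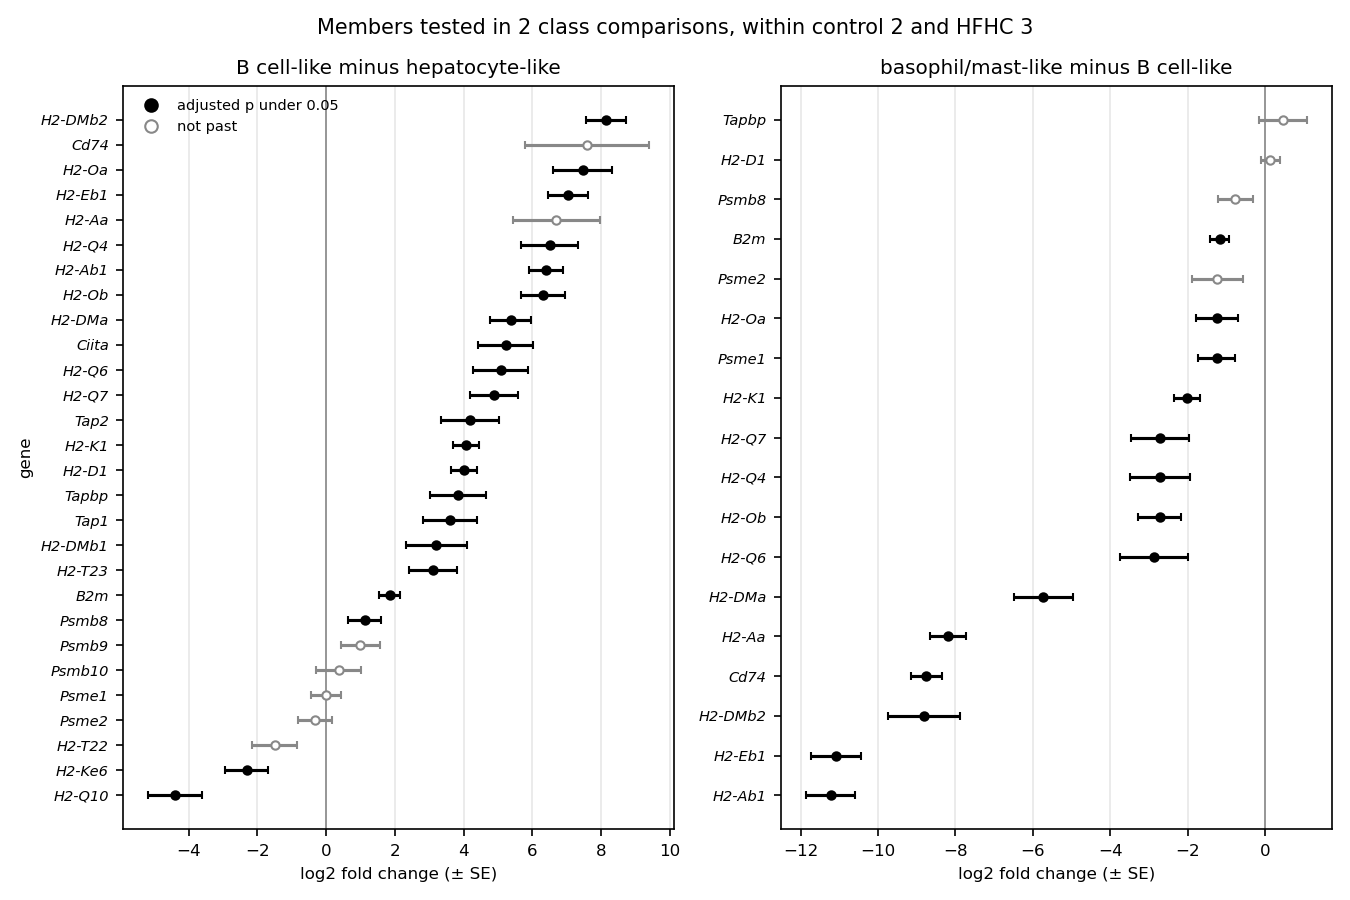
Log2 fold changes (x axis) of the members tested (y axis) in B cell-like against hepatocyte-like cells (left) and basophil or mast-like against B cell-like cells (right), within control 2 and HFHC 3. Points are edgeR estimates, bars 1 SE, filled points passed an adjusted p of 0.05. H2-DMb2 stands highest on the left at 8.15, from a gene with few counts in hepatocyte-like cells, and H2-D1 stays at 0.13 on the right while class II genes lie lowest.

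The balance of H2-K1 and H2-D1 differed between classes. H2-K1 made up 13.5% (95% interval 7.17 to 22.4) and 12.9% (9.04 to 17.6) of the counts of both genes in basophil or mast-like cells of control 2 and HFHC 3, and 14.6% (7.80 to 24.2) in neutrophil-like cells. In T or NK cell-like cells the share was 45.7%, in cholangiocyte-like cells 44.3% and 45.3%, and in B cell-like cells 39.8% and 43.3%. The 3 lowest sums therefore lay apart from these lymphocyte and cholangiocyte sums, with intervals that did not overlap. LSEC-like cells varied from 28.6% to 41.7% across their 5 libraries. In control 4 LEC-like cells stood at 21.8% (17.4 to 26.7) and LSEC-like cells at 33.7% (29.3 to 38.4). The 60-base words of H2-K1 and H2-D1 transcripts that other members share were 5.89% and 6.79%, counted over whole transcripts and not where the reads fall.

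**Figure D3:**
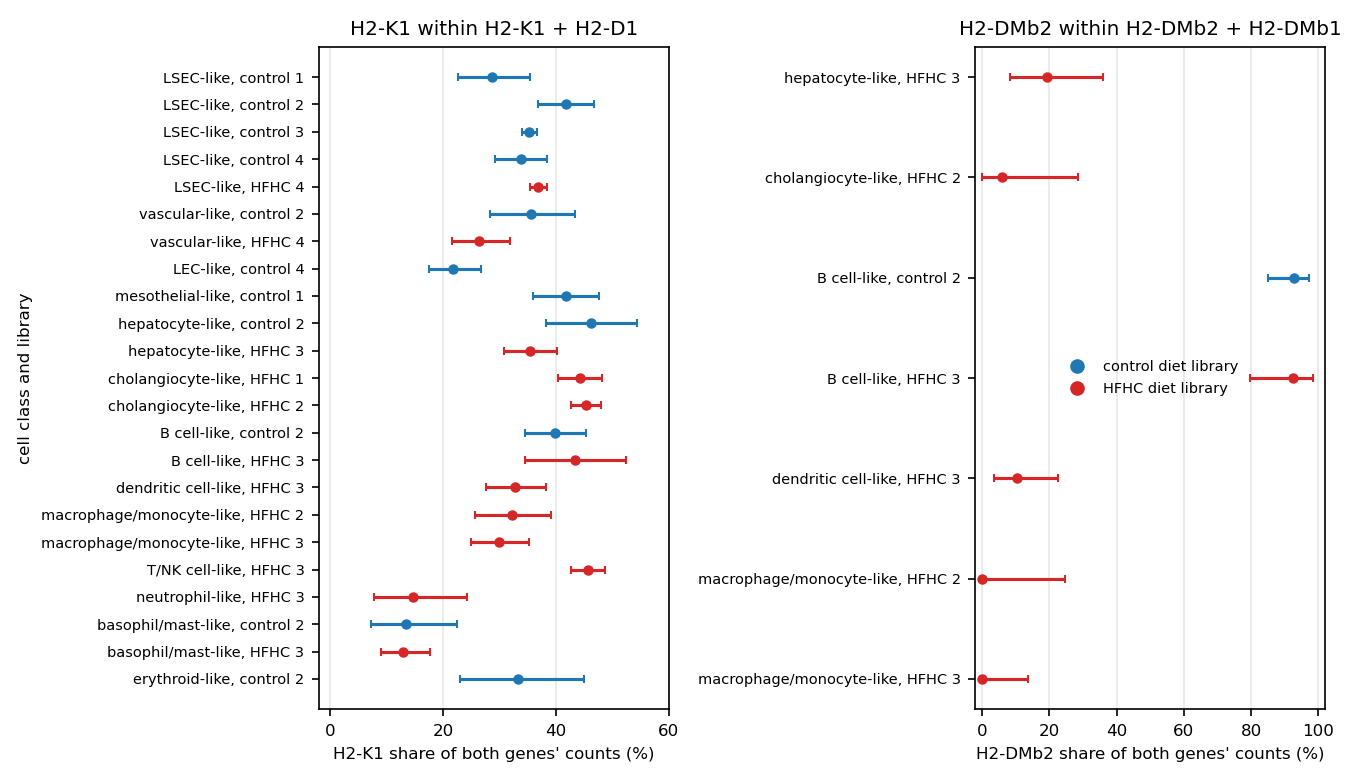
Share of H2-K1 in the counts of H2-K1 and H2-D1 (left) and of H2-DMb2 in the counts of H2-DMb2 and H2-DMb1 (right), in percent (x axis), by class and library (y axis), with exact 95% binomial intervals. Blue marks control and red HFHC libraries. Basophil or mast-like and neutrophil-like cells lie lowest on the left, from 12.9% to 14.6%, and B cell-like cells stand at 92.9% and 92.5% on the right, above every other class drawn.

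The heavy chains of the Q, T and M regions did not share 1 pattern. H2-Q10 stood at 305 and 312 CPM in hepatocyte-like cells of control 2 and HFHC 3, a ratio of 1.02 (0.889 to 1.18), and fell by 4.39 on the log2 scale in B cell-like cells (SE 0.78, edgeR adjusted p = 1.69e-06). Neutrophil-like cells of HFHC 3 carried it at 753 CPM from 12 counts, beside a summed level of hepatocyte markers of 6652 CPM there and 53085 CPM in hepatocyte-like cells of that library. Its part in the H2-Q10 level was not tested. H2-Q10 shares 15% of its 60-base words with other members, most with H2-Q7.

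H2-Q7 (a Qa-2 chain) stood at 117, 153, 519 and 206 CPM in LSEC-like cells of control 1 to 4, at 349 in HFHC 4 and at 907 in T or NK cell-like cells. Its hepatocyte-like levels were 5 and 9 CPM, and in HFHC 3 the ratio of T or NK cell-like to hepatocyte-like cells was 101 (59.5 to 185). H2-T23, which encodes Qa-1, was steadier in LSEC-like cells, at 313, 337, 549 and 463 CPM in the controls and 376 in HFHC 4. Within control 2 it was 32.5 times higher in LSEC-like than hepatocyte-like cells. H2-Q4 was at least 78.5-fold higher in that pair, from 29 against 0 counts, with 3 counts taken as the limit for the hepatocyte-like sum.

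A few rare heavy chains were named after their values were seen. H2-Q1 had 2 and 26 counts in hepatocyte-like cells of control 2 and HFHC 3 and 1 count in T or NK cell-like cells. H2-Q2 had 3 and 12 counts and H2-M2 3 and 4 counts in cholangiocyte-like cells of HFHC 1 and HFHC 2, with 1 and 2 further counts in hepatocyte-like cells. H2-T24 had 7 counts in LSEC-like cells of control 3, 4 in HFHC 4, and 4 in macrophage or monocyte-like cells of HFHC 3. These counts are small, and the Q genes share sequence. H2-Ke6 was found most in hepatocyte-like cells, at 250 and 260 CPM, and fell by 2.31 on the log2 scale in B cell-like cells (SE 0.62, edgeR adjusted p = 0.00154), a call that DESeq2 did not make (adjusted p = 0.0563).

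The immune proteasome subunits had smaller estimates between these classes than H2-K1 and H2-D1, a contrast with no test of its own. Psmb8 stood at 113 and 211 CPM in hepatocyte-like cells, at 215, 161, 364 and 206 CPM in LSEC-like cells of control 1 to 4, at 263 in HFHC 4 and at 907 in T or NK cell-like cells. In B cell- against hepatocyte-like cells Psmb8 rose by 1.12 (SE 0.47, edgeR adjusted p = 0.0484), a call that 4 of the alternative settings lost. Psmb9 (1.00, SE 0.57, adjusted p = 0.152) and Psmb10 (0.37, SE 0.65, adjusted p = 0.685) did not pass, nor did the activator subunits Psme1 (0.00, SE 0.44) and Psme2 (-0.33, SE 0.50). Psmb8 stood at 456 and 370 CPM and Psmb9 at 234 and 142 CPM in B cell-like cells of control 2 and HFHC 3, against 46 and 142 CPM of Psmb9 in hepatocyte-like cells. Both libraries were thus higher in B cell-like cells for Psmb8, and control 2 for Psmb9. On simulated counts this comparison recovered 0% of 2-fold and 32% of 4-fold changes.

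Set against the standard subunit it replaces, Psmb8 made up 21.3% (18.0 to 24.9) and 30.0% (27.4 to 32.7) of Psmb8 and Psmb5 counts in hepatocyte-like cells of control 2 and HFHC 3. In LSEC-like cells it was 61.9% in control 3 and 54.5% in HFHC 4, and it reached 84.0% in dendritic cell-like and 87.6% in T or NK cell-like cells. Psmb9 made up 6.71% and 17.5% of Psmb9 and Psmb6 in hepatocyte-like cells, 43.8% and 38.3% in these LSEC-like cells, and 64.4% in T or NK cell-like cells. Psmb10 in Psmb10 and Psmb7 showed the same order, with 9.97% and 14.6% in hepatocyte-like cells, 62.4% and 66.5% in these LSEC-like cells and 70.3% in T or NK cell-like cells. LEC-like cells of control 4 had 0 Psmb9 counts beside 30 of Psmb6, which allows up to 11.6%. On a list of 12 standard proteasome genes, 9 fell and 0 rose in B cell- against hepatocyte-like cells, where 23.9% of all genes fell. Among them were Psma7 (-2.26) and Psmb6 (-2.22), and the list median was -1.95 against -0.59 for all genes. The list is not split by the class in which a gene reached the filter on low counts. Of 814 genes that reached it in hepatocyte-like sums alone 52.9% fell and 0 rose.

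Class II was high in B cell- and dendritic cell-like cells and in macrophage or monocyte-like cells of HFHC 2. Erythroid-like cells of control 2, with Cd74 at 3261 CPM, and cholangiocyte-like cells are described further on. The summed level of H2-Aa, H2-Ab1, H2-Eb1 and Cd74 was 42202 and 42325 CPM in B cell-like cells of control 2 and HFHC 3, 32963 in dendritic cell-like cells of HFHC 3, and 63924 and 6001 in macrophage or monocyte-like cells of HFHC 2 and HFHC 3. B cell-like cells of both diets lay close together, while the 2 macrophage or monocyte-like sums were far apart. Within HFHC 3, dendritic cell-like and B cell-like cells differed little in H2-Ab1 (1.08 times, 0.910 to 1.29) and H2-Aa (1.00 times, 0.855 to 1.18), and Cd74 was 0.661 times as high (0.606 to 0.721). Of 19 members 4 were at least 2-fold higher in dendritic cell-like cells, against 33.5% of all genes, and 1 lower, H2-DMb2, against 7.81%. Macrophage or monocyte-like cells of HFHC 3 held 0.142 times the Cd74 of B cell-like cells (0.124 to 0.162) and 3.55 times the H2-DMb1 (1.08 to 18.4). There 3 of 17 members were higher, against 41.5%, and 6 lower, against 9.09%. Against LSEC-like cells of control 2, B cell-like cells held 177 times the Cd74 (113 to 295), with 11 of 22 members higher, against 15.2%, and 1 lower, against 40.6%. Over the 19 dendritic cell-like cells of all libraries, the leading genes by fold held Siglech and Ccr9, markers of plasmacytoid dendritic cells, and also Clec10a. In HFHC 3 only Xcr1, Ccr7 and Fscn1 of 11 dendritic cell markers were at 0. Clec9a, Cd209a and Clec10a were thus present there beside Siglech and Ccr9, and the kind of dendritic cell is not settled.

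In macrophage or monocyte-like cells, Cd74 was 9.24 times higher in HFHC 2 than in HFHC 3 (8.12 to 10.5), H2-Ab1 11.8 times and H2-Eb1 20.0 times. H2-DMa (1.05 times) and H2-DMb1 (1.28 times), which load peptide onto class II, showed no such ratio. Both libraries are HFHC. Their macrophage or monocyte-like sums also differed in the markers of the class, at 18757 CPM in HFHC 2 and 5394 CPM in HFHC 3. Ly6c2, Chil3 and F13a1 had no counts in the HFHC 2 sum, and Clec4f had none in that of HFHC 3. The cells may thus differ in kind, and the part of this in the class II ratios was not tested. Of 16 members with at least 20 counts, 4 were at least 2-fold higher in HFHC 2 against 10.5% of all genes, and 1 at least 2-fold lower against 37.1%. In both libraries 5 cells held most Cd74 counts, 86.3% of them in HFHC 2 and 93.6% in HFHC 3, so a few cells set these levels.

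**Figure D4:**
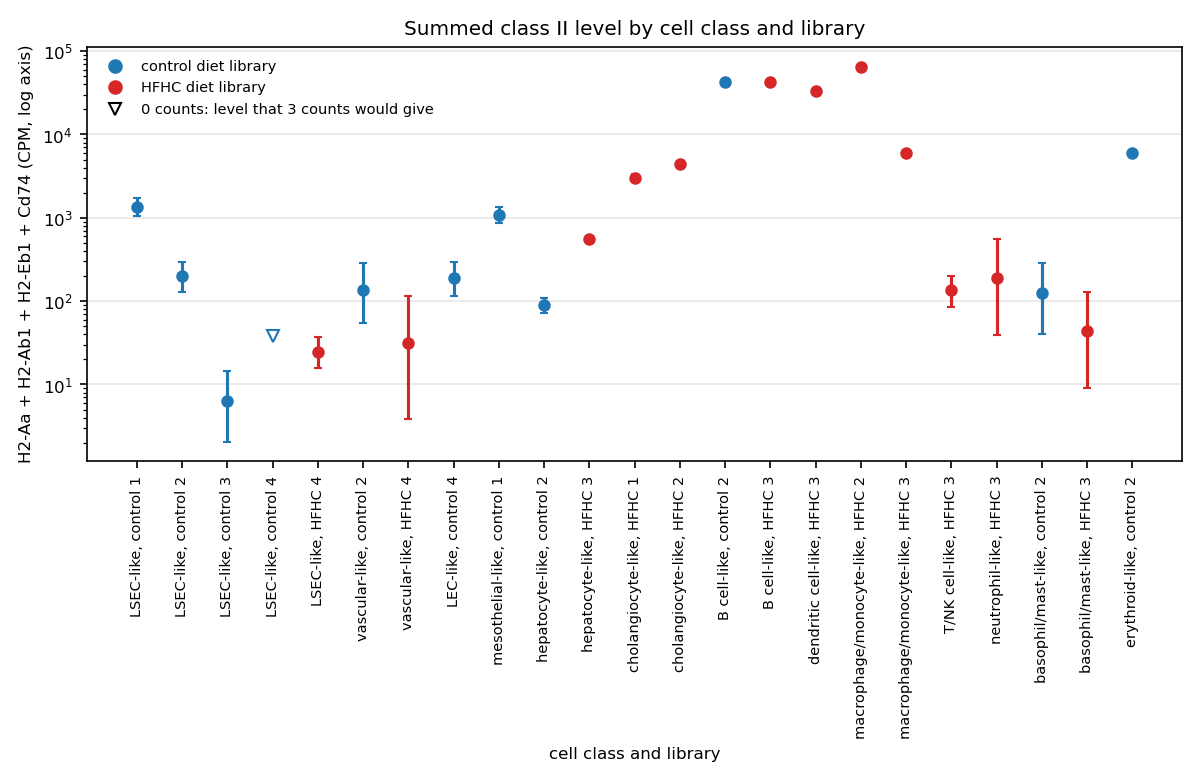
Summed level of H2-Aa, H2-Ab1, H2-Eb1 and Cd74 in CPM (log y axis) by class and library (x axis), with exact 95% Poisson intervals. Blue marks control and red HFHC libraries, and the open triangle is the level 3 counts would give where 0 were found. B cell-like cells stand at 42202 and 42325 CPM, LSEC-like cells of control 3 at 6.3.

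In the test of B cell- against hepatocyte-like cells, H2-Ab1 rose by 6.40 (SE 0.50, edgeR adjusted p = 5.92e-08) and H2-Eb1 by 7.04 (SE 0.59, adjusted p = 4.02e-06) on the log2 scale. Cd74 (7.60, SE 1.81, adjusted p = 0.179) and H2-Aa (6.69, SE 1.27, adjusted p = 0.0842) had estimates of like size that did not pass. Cd74 passed under 4 of 11 alternative settings and H2-Aa under 6 of 11, DESeq2 among them in both cases (adjusted p = 8.72e-17 and 5.42e-12), and their adjusted p ranged up to 0.318 and 0.0842. Their hepatocyte-like levels were 35 and 280 CPM for Cd74 and 16 and 113 CPM for H2-Aa in control 2 and HFHC 3. Ciita was estimated at 5.23 (SE 0.81), from 7 and 5 counts in B cell-like against 0 and 8 counts in hepatocyte-like cells. Ciita was otherwise found in dendritic cell-like cells with 11 counts and in other class sums with at most 4.

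H2-DM and H2-O separated the presenting classes. H2-DMb2 made up 92.9% (85.1 to 97.3) and 92.5% (79.6 to 98.4) of H2-DMb2 and H2-DMb1 counts in B cell-like cells of control 2 and HFHC 3. The share was 10.4% (3.47 to 22.7) in dendritic cell-like cells, 0 of 13 and 0 of 25 counts in macrophage or monocyte-like cells of HFHC 2 and HFHC 3, and 1 of 17 in cholangiocyte-like cells of HFHC 2. B cell-like cells thus used mainly H2-DMb2 of these related beta chains, and the other presenting classes mainly H2-DMb1. About 19.5% and 18.1% of the 60-base words of H2-DMb1 and H2-DMb2 occur in both transcripts, so the counts of each are uncertain where reads fall there. Against hepatocyte-like cells, H2-DMb2 had 115 counts in the B cell-like sums of both libraries together (1028 CPM) and 8 in the hepatocyte-like sums (2.93 CPM), and H2-DMb1 9 (80.4 CPM) and 30 (11.0 CPM). The fitted log2 values were 8.15 (SE 0.58) and 3.21 (SE 0.88), both from genes that passed the filter through B cell-like cells alone. The H2-DMb1 call was lost with DESeq2 (adjusted p = 0.107), without the filter on low counts (0.0701) and with cluster classes (0.777).

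H2-Oa and H2-Ob, which form the H2-DM inhibitor H2-O, had 25 and 44 counts in B cell-like cells of control 2 and 8 and 12 in HFHC 3, against 3 and 12 counts in the far deeper hepatocyte-like sums of both libraries. Macrophage or monocyte-like cells had 0 counts of either gene in both libraries. Dendritic cell-like cells had 14 counts of H2-Oa and 1 of H2-Ob. Basophil or mast-like cells had 3 and 10 counts of H2-Oa and 2 and 5 of H2-Ob in control 2 and HFHC 3, beside 0 counts of H2-Ab1, H2-Eb1 and H2-DMb2. In HFHC 3 their H2-Oa level was 82.1 times that of hepatocyte-like cells (21.1 to 464), from 10 against 3 counts, and 5 of 20 members were at least 2-fold higher there, against 18.6% of all genes, and 10 lower, against 49.9%. Against B cell-like cells, H2-Oa fell by 1.25 (SE 0.55, edgeR adjusted p = 0.0436) and H2-Ob by 2.73 (SE 0.56, adjusted p = 5.57e-06). Both were among the 12 members that reached the filter's minimum in B cell-like sums alone and so could only be lower. Of 105 genes of that kind 79% fell and 0 rose. The H2-Oa call was lost with DESeq2 (adjusted p = 0.239), without the filter (0.506), with cluster classes (0.0732) and with the stricter gate (0.0637). H2-Ab1 was at least 202-fold, H2-Eb1 at least 179-fold and H2-DMb2 at least 37.1-fold lower, with 3 counts over both libraries as the limit.

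Cholangiocyte-like cells carried class II at 3020 and 4449 CPM in HFHC 1 and HFHC 2. Cd74 was found in 14 of 14 and 43 of 46 of these cells, and the 5 cells with most held 36.1% of the Cd74 counts in HFHC 2. In HFHC 2 the class II sum was 6.96% (6.46 to 7.50) of that in macrophage or monocyte-like cells of the same library, and the summed macrophage markers were 4.47% (3.79 to 5.25). C1qa, C1qb and C1qc stood at 3.49%, 4.10% and 4.71% of the macrophage level, and 5 of 14 macrophage markers were at 0 in each cholangiocyte-like sum. The macrophage or monocyte-like sum of HFHC 2 also had 5 at 0, with Marco, Timd4, Ly6c2 and F13a1 at 0 in both classes. In HFHC 1, Marco, Ly6c2, Chil3 and F13a1 were at 0 over all cells, so most of these zeros do not separate the classes. In HFHC 2 the class II sum of cholangiocyte-like cells was lower with cluster classes (2649 CPM, 35 cells) and with the stricter gate (3735 CPM, 42 cells). With every shared barcode removed, 19 cholangiocyte-like cells stayed in HFHC 2 with a class II sum of 14767 CPM. The class II share was then 28.6% (25.8 to 31.6) of the macrophage level and that of the macrophage markers 12.2% (9.51 to 15.5), so both moved up and class II stayed the higher. Macrophage or monocyte-like cells had 6 of 23 members at least 2-fold higher than these cholangiocyte-like cells, all of them class II chains or helpers, against 9.28% of all genes, and 4 lower, against 42.1%. Between HFHC 2 and HFHC 1, cholangiocyte-like cells had 1 of 22 members at least 2-fold higher (H2-T23, 2.29 times, 1.14 to 5.08), against 9.26%, and 0 lower, against 3.94%. The part of macrophage RNA in the cholangiocyte-like level was not tested.

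LSEC-like cells held little class II in most libraries. The class II sum was 1350 CPM in control 1, 199 in control 2, 6.3 (5 counts) in control 3, 0 counts in control 4, which allows up to 38.6 CPM, and 24.8 (24 counts) in HFHC 4. Cd74 UMIs were seen in 14 of 19, 9 of 61, 2 of 556 and 0 of 38 cells of control 1 to 4 and in 10 of 557 of HFHC 4. With classes from clusters control 1 held only 4 LSEC-like cells, below the minimum of 10 cells for a class sum. The LSEC-like sums of control 1 and control 2 also carried B cell markers at 176 and 230 CPM and macrophage markers at 293 and 30.7 CPM, while B cell markers were at 0 in control 3 and control 4. In control 2 the hepatocyte-like, vascular endothelial-like and basophil or mast-like sums held class II at 88.8, 138 and 124 CPM with B cell markers at 126, 118 and 99.0. Of all 6084 B cell marker counts of control 2, 4539 lay in its 41 cells without a class and 1268 in B cell-like cells. The marker level thus does not stand for B cell-like cells alone. Cd74 alone was 4.17 times higher in LSEC-like than in hepatocyte-like cells of control 2 (2.26 to 7.44). The part of RNA from B cells and macrophages in these class II levels was not tested. In control 3 and HFHC 4, which hold the most LSEC-like cells, B cell markers stood at 0 and 2.1 CPM, and both class II sums lay below those of control 1 and control 2.

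Between diets no member passed in LSEC-like cells, where 4 control libraries stood against HFHC 4 alone, so the spread is that of the controls. Of 20 members tested 0 passed edgeR's test, against 0.317% of 3787 genes (0.185% higher, 0.132% lower), and 0 had an unadjusted p under 0.05. DESeq2 called 49 genes and also 0 members. The estimates were positive for 11 of 20 members, with a median log2 of 0.01 against -0.06 for all genes. B2m stood at 0.17 (SE 0.42), H2-D1 at -0.13 (SE 0.41), H2-Q7 at 0.49 (SE 0.45) and Psmb9 at 0.66 (SE 0.47), each with an edgeR adjusted p of 1.0. The largest estimates were negative, at -4.23 (SE 2.80) for H2-Aa, -3.35 (SE 2.88) for H2-Eb1, -3.16 (SE 3.71) for Cd74 and -1.12 (SE 0.73) for Erap1, with the same adjusted p. For H2-Aa, H2-Eb1 and Cd74 control 1 was the highest library, and with the library set as a term these 3 estimates turned positive. The class of control 1 rests on the marker gate, as clusters named only 4 of its cells LSEC-like. On simulated counts of this comparison, 36% of genes changed 4-fold and 2% of those changed 2-fold were recovered, so changes of 2-fold were not detectable.

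**Figure D5:**
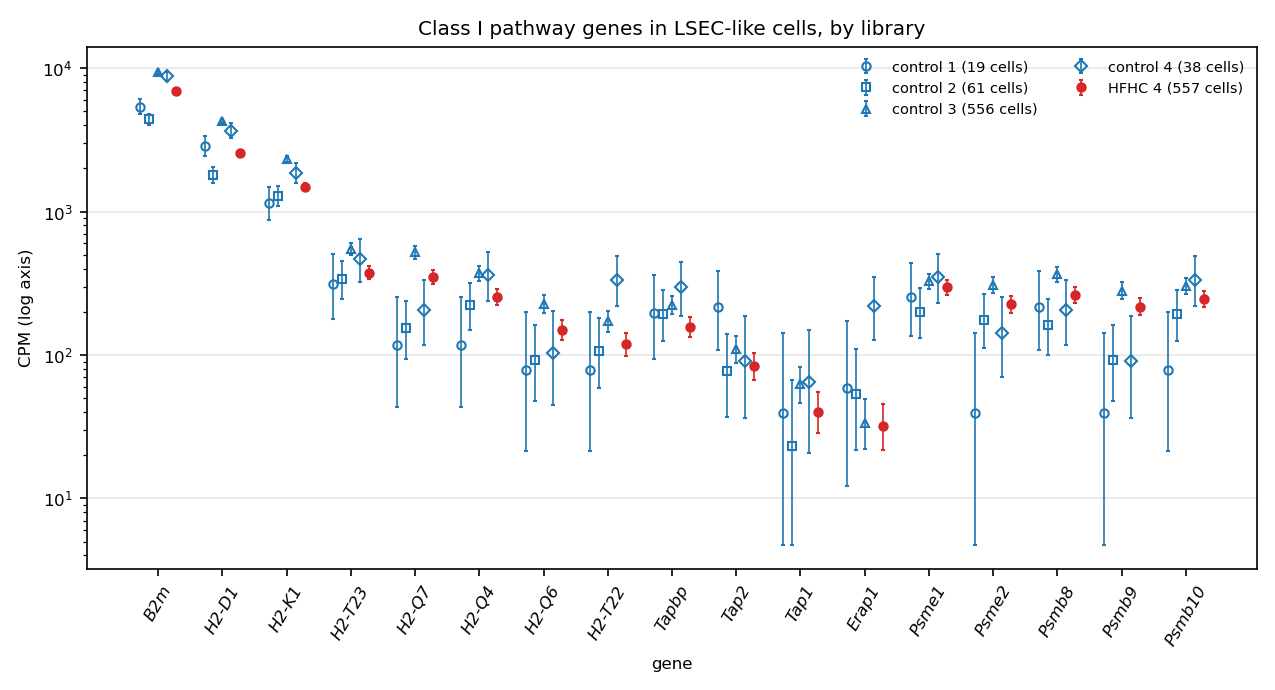
CPM (log y axis) of class I pathway genes (x axis) in LSEC-like cells, with exact 95% Poisson intervals. Blue open symbols are control 1 to 4 and the red filled circle HFHC 4. HFHC 4 lies among the controls for B2m, H2-D1 and H2-K1, and control 3 lies above HFHC 4 for these genes.

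Control 3 and HFHC 4 both hold over 500 LSEC-like cells and few shared barcodes. H2-K1 was 0.643 times as high in HFHC 4 as in control 3 (0.600 to 0.690), H2-D1 0.601 times and B2m 0.740 times (0.716 to 0.765). These ratios are clear of counting error, yet control 1 and control 2 stood below HFHC 4 for H2-K1 and B2m, so they lie inside the spread of control mice. Of 21 members, 1 was at least 2-fold higher in HFHC 4 (Cd74, 17 against 3 counts, 4.68 times, 1.35 to 24.9), against 4.25% of all genes, and 0 were 2-fold lower, against 5.99%.

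In vascular endothelial-like against LSEC-like cells no class I gene passed the test, which on simulated counts recovered 0% of 2-fold and 62% of 4-fold changes. The classes were not sharply apart. Vascular endothelial-like sums carried LSEC markers at 5051 and 4627 CPM in control 2 and HFHC 4, beside 5346 and 6583 CPM of their own markers. Of 49 vascular endothelial-like cells in all libraries, 13 had a score margin over the next class of 0.05 to 0.10. The part of this overlap in the result was not tested. Within control 2 and HFHC 4, 0 of 14 members passed edgeR's test, against 9.49% of 1675 genes (5.13% higher, 4.36% lower), and 1 had an unadjusted p under 0.05. This was Psmb8 (0.73, SE 0.36, adjusted p = 0.241), with 138 against 161 CPM in control 2 and 604 against 263 CPM in HFHC 4. DESeq2 called 52 genes and 0 members. Within the libraries, 2 of 14 members were at least 2-fold higher in control 2, against 6.83%, and 1 lower, against 15.4%, and in HFHC 4 2 of 19 were higher, against 13.6%, and 1 lower, against 21.7%. The higher members were H2-T22 and Psmb9 in control 2 and Psmb8 and Tap2 in HFHC 4. B2m stood at -0.33 (SE 0.36), H2-K1 at -0.25 (SE 0.36) and H2-D1 at 0.29 (SE 0.36). Within HFHC 4 alone some ratios were clear of counting error, with H2-D1 at 1.35 times (1.17 to 1.55), B2m at 0.834 times (0.749 to 0.927) and Psmb8 at 2.30 times (1.59 to 3.24).

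LEC-like cells were found in control 4 alone, and their class I levels lay below those of LSEC-like cells there. H2-K1 stood at 716 against 1865 CPM, a ratio of 0.384 (0.285 to 0.513), B2m at 3366 against 8746 CPM, 0.385 (0.337 to 0.439), and H2-D1 at 2570 against 3666 CPM, 0.701. H2-T22 (0.0904, 3 against 26 counts), H2-Q4 (0.196) and Psme1 (0.319) were also lower, and H2-T23 stood at 383 against 463 CPM. Of 12 members 8 were at least 2-fold lower in LEC-like cells, against 20.6% of all genes, and 0 at least 2-fold higher, against 21.1%. The LEC-like sum carried class II at 191 CPM with B cell markers at 141 CPM, and the pair has no replicate.

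In hepatocyte-like cells the diets can be compared in 1 library each, control 2 and HFHC 3, with no test. Of 21 members 11 were at least 2-fold higher in HFHC 3, against 10.9% of all genes, and 0 at least 2-fold lower, against 3.35%. They included Cd74 (8.01 times, 5.72 to 11.5), H2-Aa (7.04), H2-Eb1 (4.92), H2-Ab1 (3.80), Psmb9 (3.06, 2.24 to 4.26) and H2-D1 (2.01, 1.57 to 2.60). B2m (1.06), H2-K1 (1.28, 0.962 to 1.73) and H2-Q10 (1.02) stood near 1.

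The class II part of this difference rested on few cells. In HFHC 3, 47 of 653 hepatocyte-like cells had a Cd74 UMI, and 5 of them held 88.7% of the counts, up to 189 in a cell. In control 2, 35 of 657 cells had one, and the top 5 held 18.9%. With a stricter marker gate (634 and 624 cells) the Cd74 ratio was 0.694 and the class II sum 90.8 CPM in control 2 and 56.0 in HFHC 3. Only 2 of 17 members were then at least 2-fold higher, H2-Q1 and Psmb9, against 8.06% of all genes, and 1 was lower, against 3.55%. With cluster classes 5 of 29 were higher, against 9.07%, and the Cd74 ratio was 1.53.

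B cell-like cells had like levels in both diets. Between HFHC 3 and control 2 the ratio was 0.977 (0.901 to 1.06) for Cd74, 0.965 for H2-Ab1, 1.11 for H2-Aa and 1.04 for H2-DMb2. Of 19 members 0 were at least 2-fold higher, against 3.69% of all genes, and 0 at least 2-fold lower, against 9.78%. Cd74 counts were found in 37 of 37 and 15 of 15 of these cells. In basophil or mast-like cells of the same libraries 1 of 7 members was at least 2-fold higher in HFHC 3 (Psme1, 5.66 times, 1.36 to 50.1, 19 against 2 counts), against 9.13%, and 0 lower, against 6.6%.

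Summed over all cells, where a change in the number of cells of a type and in RNA per cell cannot be told apart, 4 control and 4 HFHC libraries were tested. Of 26 members 0 passed, and 0.0% of 6666 genes did. No member had an unadjusted p under 0.05, while 54 genes did in edgeR's test and 126 in DESeq2's, which also called 0. The estimates were positive for 19 members. Cd74 stood at 1567, 2038, 34.7 and 69.9 CPM in control 1 to 4 and at 4923, 5550, 1696 and 16.7 CPM in HFHC 1 to 4, which gave 1.52 (SE 1.57). H2-DMb1 stood at 1.96 (SE 1.18) and H2-K1 at 0.33 (SE 0.51), with edgeR adjusted p-values of 0.999. The groups overlapped for Cd74, and control 3, control 4 and HFHC 4 were low, the libraries that consist mostly of endothelial-like cells.

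Other genes of the pathway came from lists. In B cell- against hepatocyte-like cells, where 15.8% of all genes rose and 23.9% fell, 4 of 8 endosomal processing genes rose, led by Ctss (5.67), the cathepsin that cuts the invariant chain, and Ctsh (2.82), and 0 fell. Of 8 tested genes of interferon gamma signalling 4 rose, led by Irf8 (3.83) and Ifngr1 (4.50), and 0 fell. Of 8 peptide loading chaperones 3 rose and 1 fell, with Hspa5 at 2.70 and Sec61b at -1.58. Of 3 tested class II transcription factors 2 rose, Creb1 (2.95) and Spi1 (2.70). Of 3 tested MHC-like genes outside the H2 symbols 1 fell, Azgp1 (-2.72), and 0 of 8 costimulation genes passed the filter on low counts in any comparison. The first 4 lists had medians of 1.79, 1.91, 1.60 and 2.70, against -0.59 for all genes. Unlike the members, these lists are not split by the class in which a gene reached the filter. Genes that reached it in B cell-like sums alone could only be higher, and of 843 such genes 64.5% rose and 0 fell.

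Basophil or mast-like cells carried more Ctsd (5.69), Spi1 (2.43) and Hspa5 (1.61) and less Ctss (-7.99) and Irf8 (-6.95) than B cell-like cells, all past the edgeR threshold. The lists are not split by filter reach here either. Of genes that reached the filter in basophil or mast-like sums alone 86.3% rose, and of those in B cell-like sums alone 79% fell. In vascular endothelial- against LSEC-like cells, where 5.13% of all genes rose and 4.36% fell, 2 of 7 endosomal genes rose and 2 fell. Those that rose were Ctsh (7.79) and Cst3 (2.88), while Jak1 (-1.62) and the Fc receptor Fcgrt (-1.25) also fell. There, 38.9% of genes that reached the filter in vascular endothelial-like sums alone rose, and 35.7% of those in LSEC-like sums alone fell. Between diets 0 genes of any list passed. Cxcl9, a chemokine induced by interferon gamma, was nearest in LSEC-like cells, at 1.41 (SE 0.47, edgeR adjusted p = 0.200).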

How the data were processed

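The deposited data are raw UMI counts in a gene by cell table of 8 libraries. Per the submitters' processing notes, the authors used Cell Ranger 3.0.1 and Seurat with mm10 (Seurat's version and the gene annotation: not stated in these sources). The authors' 3416 deposited cells had 202 or more genes each and up to 10.0% of counts from mitochondrial genes.

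A barcode found in several libraries was kept where it had most UMIs, and 224 cells were dropped. Marker levels (log of counts per 10000, scaled to their 90th percentile) gated cells to the class with the highest mean, given at least 3 markers and a margin of 0.05. Clusters found without the members (scanpy 1.11.5, leidenalg 0.10.2, resolution 1, 2000 genes, 30 components, 15 neighbours) gave 94.7% of gated cells the same class. Smaller classes agreed less. No cluster was named macrophage or monocyte-like, and control 1 held 4 LSEC-like cells by clusters against 19 by the gate. Clusters named 22, 16 and 30 cells of control 1, HFHC 1 and HFHC 2 neutrophil-like, where the gate named 3, all in HFHC 2. Rebuilt class names describe transcripts. Scrublet marked 68 cells (2.13%) as doublets, which were kept, and left out in an alternative.

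Sums per library and class (10 cells or more) were tested over all genes by edgeR 4.0.16 in R 4.3.3, with TMM scaling, filterByExpr, the robust quasi-likelihood test and Benjamini-Hochberg adjustment at 0.05. The SE is the absolute log2 change divided by the square root of F. Planned comparisons that too few libraries allowed were given as ratios of single libraries with exact conditional 95% intervals (scipy 1.17.1), over genes with at least 20 counts, called past 2-fold, with no test. A count of 0 allows up to 3. The fits were tested on simulated data. DESeq2 1.42.0, DESeq2's size factors, no filter, other cell minimums, at least 500 genes, cluster classes, a stricter gate (margin 0.15), kept or removed shared barcodes, a replicate block, the library sets and leaving out libraries were alternatives. P-values of the diet comparisons measure the spread between mice, 1 library each. Those of the class comparisons have the library as a covariate and rest on 2 libraries each. They measure how far a class difference varied between those libraries, and a small value is no replication over many mice.

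Members and lists were chosen with earlier results of these data known. Named members were a written list plus any past the threshold, and for other lists up to 2 genes with the smallest adjusted p. Positions are from GENCODE vM21, sequences from RefSeq (GRCm38.p6). The kappa B letters were shortened by 1 base after a first search, which added the match in H2-Aa. Ifi30 was not analysed here. Windows in which more than 30 bases lie in an exon of the gene (H2-D1, H2-DMb1) were not printed.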

Additional observations from a re-analysis of the deposited data

Results flagged for a closer look

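In 7 of 72 groups of 4 libraries, the gap between the lowest or highest library and its neighbour took more of the group's range than Dixon's 95% limit. Chance passes about 1 in 20 such groups. Among control LSEC-like cells, H2-Aa stood at 235, 7.7, 1.3 and 0 CPM in control 1 to 4, a gap of 0.967 of the range. H2-Eb1 had the same high library, with 176, 15.3, 1.3 and 0 CPM and a gap of 0.913. By the marker gate control 1 contributes 19 LSEC-like cells, against 4 with cluster classes. The gated sum carried B cell markers at 176 CPM and macrophage markers at 293 CPM, and the part of these in the class II levels was not tested.

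H2-Q6 stood at 78.2, 92.0, 228 and 103 CPM in LSEC-like cells of control 1 to 4, with control 3 high and a gap of 0.835. Summed over all cells of the controls, H2-Q6 stood at 58.7, 35.5, 228 and 58.3 CPM, again with control 3 high and a gap of 0.88. Psmb8 over all cells stood at 223, 218, 367 and 198 CPM in control 1 to 4, with a gap of 0.853 to control 3. Erap1 in control LSEC-like cells stood at 58.7, 53.7, 33.8 and 219 CPM, with control 4 high and a gap of 0.865. Erap1 over all cells of the HFHC libraries stood at 36.2, 34.7, 8.7 and 33.4 CPM, with HFHC 3 low and a gap of 0.898.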

How the results depend on the processing

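Of 680 alternative values of member log2 fold changes, 642 kept direction and side of the threshold, 18 were no longer past it, 10 newly passed and 10 reversed. In LSEC-like cells between diets, 0 members passed under every setting run, while the 12 genes called became 49 with DESeq2, 7 without the filter on low counts, 2 with cluster classes, 2 with shared barcodes removed and 6 with the library set as a term, which was added after seeing the data. Leaving out 1 control gave 7 to 16 genes, with 7 without control 2. All reversed values there had not passed: B2m was -0.18 within control 3, control 4 and HFHC 4 and -0.19 with the library set as a term, Cd74 2.49 and 2.43 under the same settings, and with that term H2-Aa was 0.89 and H2-Eb1 1.41. Leaving out 1 control moved H2-D1 between -0.28 and 0.032 (0.032 without control 3), B2m between 0.05 and 0.32 and Cd74 between -3.89 and -1.06. Over all cells 0 genes were called, and 1 within control 3, control 4 and HFHC 4, where H2-K1 was -0.13 and Cd74 -1.51. Leaving out a library left 0 genes called.

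With the replicate number as a block, 0 genes and 0 members were called over all cells. The correlations of same-numbered pairs were 0.49, -0.06, -0.41 and 0.16, so the samples share only a number. No such block could be fitted for LSEC-like cells or the class comparisons. Among class comparisons, the 159 genes called in vascular endothelial- against LSEC-like cells became 52 with DESeq2 and 56 with cluster classes, the 2045 of B cell- against hepatocyte-like cells 877 with DESeq2, and the 414 of basophil or mast- against B cell-like cells 273. H2-D1 of the last comparison was -0.013 without the filter. The causes were not tested. Of 218 described values 206 moved by less than their counting interval. Leaving out a library was not possible in comparisons within 2 libraries, and the stricter gate and the minimum of 20 cells were not run for vascular endothelial-like cells. Class sums of 10 to 20 cells, and members with few counts, limit what could be seen.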

Other observations

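LSEC-like cells of HFHC 4 were also split by the presence of Esm1, a gene of tip-like endothelial cells, into 135 cells with a UMI and 422 without. H2-T23 was 0.54 times as high in the cells with Esm1 (95% interval 0.416 to 0.705), and Tap2 0.446 times (0.231 to 0.801). H2-K1 stood at 0.852 times (0.759 to 0.956) and B2m at 0.912 times. The cells with Esm1 had a median of 2153 UMIs against 1442 for the others, and the values come from 1 library with no test.

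Erythroid-like cells of control 2 held a class II sum of 6041 CPM. All 284 Cd74 counts came from 5 of 13 cells, 1 of which held 190.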
